A study of Rattus norvegicus with 7 samples.

Results

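The unloaded spinal cord culture at 0 hours was the only one of the 7 arrays of this series to hold cells that had not been stretched, and its members are that single array, chosen by its title. The cells came from embryonic cords of Sprague-Dawley rats, dissected on day 15 after coitus (E15), freed of meninges and dorsal root ganglia, and dissociated with trypsin. They were grown for 3 days in L-15 medium with N2 supplement and horse serum, on flexible well bottoms coated with type IV collagen. Total RNA of 5 animals was pooled for the array. The other 6 arrays hold cells of the same strain, age, tissue and pooling after cyclic tensile strain of 10% at 0.5 Hz for 2 to 72 hours (2, 6, 12, 24, 48 or 72). Each time had 1 array, so no value below has a replicate, an SD or a test, and hours in culture and hours of strain cannot be told apart on the later arrays. The labels do not say whether the wells at 0 hours and at later times came from the same cultures, so a difference between those arrays cannot be told apart from one between cultures.

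Each value is a MAS5.0 signal, the brightness that the Affymetrix software derives for 1 probe set (a group of short probes for 1 transcript), in linear units scaled alike on all arrays. Without the 57 controls, 31042 probe sets remained, and their signals on the 0 hour array ran between 0.0481 and 28925 with a median of 162. A signal of 100 was used as a working floor, which 17850 probe sets (57.5%) reached. A gene was read from its brightest probe set that carries 1 gene symbol, which gave 14217 genes with a median of 405; 10518 of them (74%) reached the floor, 3825 reached 1000 and 541 reached 5000. As a background, 103 genes of liver, testis, retina, pancreas, pituitary, kidney and of olfactory and vomeronasal receptors, tissues that were not dissected, had a median signal of 14.1, and 4 of them (3.88%) reached the floor. These were Cela1, a pancreatic elastase, at 2319, Odf2, a protein of sperm tail and centrosome, at 1163, the lipase Pnlip at 276 and the photoreceptor protein Rom1 at 100.2. Probe sets bind with different strength, so an order between genes is approximate: among genes with several probe sets, the brightest was 2.57 times the dimmest in the median where both reached the floor, and in 1797 of the 3981 such genes whose brightest probe set reached the floor the dimmest did not. On the 0 hour array the 3′ to 5′ ratio of the control probe sets, a sign of RNA integrity, was 1.09 for Gapdh and 1.82 for beta-actin, against 1.1 to 1.17 and 1.53 to 2.62 on the later arrays.

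The embryonic spinal cord holds newly made neurons, the radial progenitors that line its canal, glial precursors, and microglia, the resident macrophages that enter the nervous system from outside. Fibroblasts of the meninges and vessel walls surround it and lay down collagen. Neurons depend on glia for glutamate uptake and metabolic supply, and macrophages clear dead cells and debris through their lysosomes. An array of a mixed culture reads the summed RNA of all of them.

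The signals of the unloaded culture were led by transcripts that every cell uses and, among those that mark a cell type, by transcripts of macrophages, fibroblasts and astrocytes. The labelled source, cultured spinal cord cells, was met by neuronal, glial and trunk Hox genes at or above the floor, while the defining genes of motor neurons lay below it. The brightest named gene was COX2, the mitochondrial gene for cytochrome c oxidase subunit 2 and not the cyclooxygenase Ptgs2, with a signal of 28925, and COX1, the subunit 1 gene, stood at 27016. The actin-binding peptide Tmsb4x read 26941, above the intermediate filament Vim at 22170.2 and the cytoplasmic actin Actg1 at 21809. Spp1, the secreted phosphoprotein osteopontin that macrophages make in quantity, read 26516, next to Gpnmb, a glycoprotein of phagocyte lysosomes, at 26194 and the lysosomal tetraspanin Cd63 at 23049.8. The apolipoprotein Apoe, made by astrocytes and macrophages, read 20555, and Lyz2, the lysozyme of macrophages, 19788. Col3a1, a fibrillar collagen chain of connective tissue, read 21328, and of the genes in the matrix lists only Spp1 was brighter. Lgals3, a galectin of activated macrophages, and B2m, the light chain of class I antigens, both read 19675, beside the cysteine protease Ctsb at 19681 and the fatty acid carrier Fabp4 at 19066. Gnas, a G protein subunit, read 19955, the elongation factor Eef1a1 19642 and the redox protein Txn1 18627.

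The 100 brightest probe sets held 9.15% of the summed signal of the array. Of these, 56 carried 1 symbol, 32 several and 12 none, and 44 involved a ribosomal protein gene. This order was not particular to the unloaded culture: of its 100 brightest probe sets, 89 were also among the 100 brightest at 2 hours, 84 at 6, 81 at 12 and 83 at each of 24, 48 and 72. COX2 read between 24838 and 32429 on the later arrays, Spp1 between 25522 and 30431, and Gpnmb between 25227 and 30249, so the 0 hour signal lay within the later range for all 3 genes.

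Ribosomal proteins, the protein components of the particle that translates mRNA, filled 35 of the places among the 100 brightest genes. Of 42 ribosomal protein genes measured, 39 reached the floor and 38 passed 5000, with a median of 16573, at percentile 99.7 of all genes. Rps29 led with 28302, followed by Rpl26 at 23386, Rpl27a at 22132 and Rps24 at 22055. Rpl28 at 75.6, Rpl30 at 48.7 and Rps13 at 42 lay below the floor, each on its only probe set with 1 symbol. Ribosomal protein genes are known for starting transcription inside a run of pyrimidines (C and T), a feature the ranking did not use. Of the 42 genes, 35 had a RefSeq start site entry (83.3%), and 16 of those (45.7%) had a run of 8 or more C or T letters on the transcribed strand that covered the start or began within 5 bases of it, against 5.81% of the 11700 measured genes with an entry. The windows below show the run where it was long in bright ribosomal genes. Each has 15 bases before and 15 from the start on RefSeq assembly GRCr8, printed 5′ to 3′ on the gene's strand with the run in capitals.
Rpl27a: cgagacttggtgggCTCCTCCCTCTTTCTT
Rps24: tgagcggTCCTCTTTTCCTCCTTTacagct
Rps23: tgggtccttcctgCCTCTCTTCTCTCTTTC
Rpl34: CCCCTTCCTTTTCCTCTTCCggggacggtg
The run was 20 letters in Rpl27a (chr1:172974558-172974587, plus strand), 17 in Rps24 (chr16:96502-96531, plus strand), 21 in Rps23 (chr2:23814502-23814531, plus strand, signal 20534) and 20 in Rpl34 (chr2:221962269-221962298, minus strand, signal 15581). Rpl28 and Rps13, among the dimmest of the group, held such runs too, of 11 and 10 letters, so a run at the start went with both bright and dim probe sets. In Rpl27a and Rps23 the run goes on past the end of the window.

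**Figure D1:**
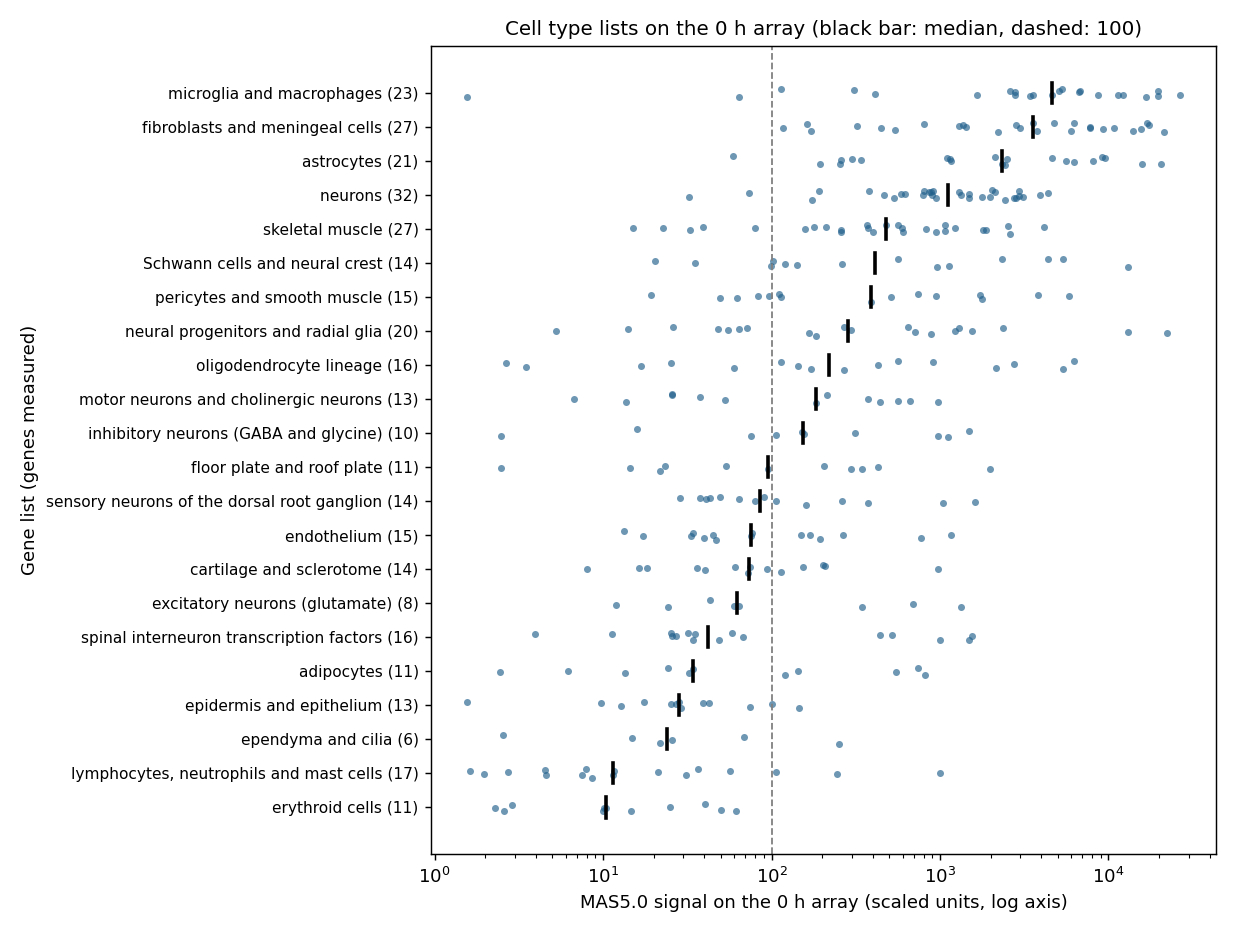
Signals of the members of 22 cell type lists on the 0 hour array, 1 point a gene on a log axis, with the list median as a black bar, the floor of 100 as a dashed line, and the number of genes measured in brackets. Macrophage, fibroblast and astrocyte lists have medians of 4647, 3567 and 2342, neurons 1121, and the erythroid list lies wholly below the floor.

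Microglia and macrophages had the highest median of the cell type lists. Of 23 measured members, 21 reached the floor (91.3%), against 74% of all genes, and 18 passed 1000 and 11 passed 5000. The median was 4647, at percentile 95.7 of all genes. Beside Spp1, Lyz2 and Lgals3, the signalling chain Fcer1g of Fc receptors read 16587 and the adaptor Tyrobp, which carries signals of the debris receptor Trem2, 11462. The phagosome protein Cd68 read 12269.7, the protease Ctss 8718 and the endotoxin coreceptor Cd14 6756. Csf1r, the growth factor receptor on which microglia depend, read 5069, and the calcium-binding marker Aif1 3578. Of the markers used for resident microglia, Tmem119 read 1649, the ADP receptor P2ry12 308 and the fractalkine receptor Cx3cr1 64.5, under the floor. The scavenger receptor Cd163 of perivascular macrophages read 1.56, and Cd74, the chaperone of class II antigens, 114. The summed signal of the list at 0 hours was 161242, within the later range of 139444 to 209675.

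A list of lysosomal genes and one of lipid handling by phagocytes were drawn up after these values had been seen, as were lists of fat cells and of other blood cells. All 36 lysosomal genes measured reached the floor, with a median of 3111 at percentile 92.7. Grn, the progranulin of lysosomes, read 16606, the saposin precursor Psap 15793 and the cholesterol carrier Npc2 13918. Of 21 genes by which phagocytes take up and store lipid, 19 reached the floor: the lipoprotein lipase Lpl read 18304, the carrier Fabp5 17564 and the droplet coat protein Plin2 8008. Fabp4 and Lpl are also fat cell genes. Of 11 other fat cell genes 5 reached the floor (45.5%), led by adipsin (Cfd) at 811 and the lipase Pnpla2 at 739, while adiponectin (Adipoq) read 24.5, the droplet protein Plin1 13.5 and leptin (Lep) 2.44. Of 17 genes of lymphocytes, neutrophils and mast cells 3 reached the floor, namely Cd8a at 998, Cd4 at 243 and Kit at 106, while the T cell receptor chain Cd3d read 1.63.

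Macrophage genes are often controlled by the factor PU.1, whose recognised core is GAGGAA. The letters GAGGAA, on either strand, were in the 250 bases before the start of 23.1% of the 11700 measured genes with a RefSeq promoter. Among the macrophage genes 16 of 23 had an entry (69.6%), under the 80% needed, so a share over the list is void. The windows of 60 bases below, all upstream of the start on GRCr8, are shown for bright macrophage genes that held the letters, in capitals as they read on the gene's strand (TTCCTC is the reverse complement).
Lyz2: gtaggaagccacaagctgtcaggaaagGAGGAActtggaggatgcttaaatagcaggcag
Cd68: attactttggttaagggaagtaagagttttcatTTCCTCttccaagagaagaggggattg
Ctss: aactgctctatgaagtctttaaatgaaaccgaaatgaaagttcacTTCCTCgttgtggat
The match began 46 bases before the start in Lyz2 (chr7:54798025-54798084, minus strand), 27 in Cd68 (chr10:54882442-54882501, minus strand) and 15 in Ctss (chr2:185775336-185775395, plus strand). A match of letters does not show that a factor bound there.

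Fibroblast and meningeal genes were the only cell type list with every member at or above the floor. All 27 reached it, 20 passed 1000 and 11 passed 5000, and the median was 3567 at percentile 93.9, although the meninges had been stripped from the cords. The collagen chains Col1a1 and Col1a2 read 17373 and 16985, and Mgp, a matrix protein that hinders calcification, 15644. The fetal growth factor Igf2 read 13946, the adhesion protein Postn 10742 and fibronectin (Fn1) 9303. Ptgds, a prostaglandin synthase of the arachnoid, read 3788. Transcription factors were among its lowest members, with Twist1 at 542, Foxc1 of the meninges at 171 and Tbx18 at 117. The summed signal was 159882 at 0 hours, above the later range of 123847 to 148370, but with all arrays set to an equal median it lay within that range, which was then 135197 to 164635. The other sums named here kept their place against the later arrays when the medians were set equal, some of them narrowly. The cell cycle sum of 64302 then stood beside a later highest of 64221, and the astrocyte sum of 93921 beside a later lowest of 93808. In this pooled sample more cells of a type and more RNA per cell cannot be told apart, here and for every cell type below.

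Astrocyte genes were nearly as bright. Of 21 measured, 20 reached the floor and 15 passed 1000, with a median of 2342 at percentile 89.2. Gja1, the main gap junction protein of astrocytes, read 15869, the filament protein Gfap 9579 and the matrix protein Sparcl1 9201. Glutamine synthetase (Glul) read 8111 and the water channel Aqp4 6218. Of the 2 glutamate transporters of astrocytes, Slc1a3 (GLAST) read 2364 while Slc1a2 (GLT-1), the later of the pair to appear in development, read 59.2, under the floor. Aldh1l1, a folate enzyme used as a general astrocyte marker, read 256. Ntsr2 at 340, Gjb6 at 300, Acsbg1 at 259 and Fgfr3 at 194 were likewise below the median of 405 of all genes. The summed signal of 93921 lay within the later range of 83561 to 104741.

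Progenitor genes were unevenly bright. Of 20 measured, 13 reached the floor (65%), against 74% of all genes, with a median of 283 at percentile 41.8. Vim and the radial glial lipid carrier Fabp7 (at 13072) led; the stem cell factor Sox2 read 1552, Hes6, which promotes neuronal commitment, 1297 and the filament nestin (Nes) 1228. Of the factors that commit progenitors to the neuronal fate, Neurog1 read 26.2 and Neurog2 5.29, and the Notch target Hes5 read 64. Of 11 floor plate and roof plate genes 5 reached the floor, among them the adhesion protein Spon1 at 1986, but the ventral signal Shh read 2.47 and its partner Foxa2 23.3. The ciliated lining of the canal was little seen: of 6 ependymal genes 1 reached the floor, Tekt1 at 253, and the ciliary factor Foxj1 read 69.1.

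The neuronal list had a lower median than the macrophage, fibroblast and astrocyte lists, and none of its genes passed 5000. Of 32 measured, 30 reached the floor (93.8%), against 74% of all genes, and 16 passed 1000. The median was 1121 at percentile 75.4, above the median of 405 of all genes. The brightest were proteins of growing axons: Gap43 of the growth cone read 4350.2, the microtubule regulator Stmn2 3939, Crmp1, which guides growth cone turning, 3127 and the growth cone protein Basp1 2958. The microtubule proteins Mapt (tau) and Map2 read 2819 and 2765. Synaptic genes were spread widely, with the fusion protein Snap25 at 2123, the vesicle protein Syn1 at 467 and the calcium sensor Syt1 at 173. Among the lowest of the list were Rbfox3 (NeuN), a nuclear marker of maturing neurons, at 379, Dpysl3, a protein of growing axons, at 190.1 and the heavy neurofilament Nefh at 73.1. Cntn2, an adhesion protein of early axons, read 32.6. The paper states, from earlier work, that most cells isolated by this method are positive for NeuN. That is a count of cells, and the Rbfox3 signal, summed over all cells, gives no share of cells. The summed signal of the list was 47947 at 0 hours, above the later range of 14823 to 28839.

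Among the lists of transmitter types, 7 of 10 inhibitory genes reached the floor (70%), near the 74% of all genes. Fewer did so of the excitatory genes, 3 of 8 (37.5%), and of the motor neuron and cholinergic genes, 7 of 13 (53.8%). Gad1, which makes GABA, read 1478, its vesicular transporter Slc32a1 311, and the peptides Npy and Sst 1122 and 969. Gad2 read 75.7 and the glycine transporter of glycinergic neurons, Slc6a5, 2.48. The vesicular glutamate transporter Slc17a6 of spinal excitatory neurons read 1330.5, and Slc17a7, which is used mainly in the forebrain, 11.9. The other excitatory genes at the floor were the factor Ebf1 at 696 and the peptide Tac1 at 343, and the factors Pou4f1, Tlx3 and Ebf2 read 64.4, 60.3 and 43.4. The motor neuron and cholinergic list was led by the limb motor column factor Foxp1 at 979 and the lectin-like Chodl at 663. The genes that define a cholinergic motor neuron lay below the floor: Chat, which makes acetylcholine, read 6.76, its vesicular transporter Slc18a3 25.6, the choline transporter Slc5a7 53.2 and the factor Isl1 37.7. Of 16 interneuron transcription factors 5 reached the floor, led by Nfib at 1557 and Nfia at 1489, 2 factors that glia share.

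Receptors and channels were dimmer than the structural genes of neurons. Of 25 receptor genes for glutamate, GABA and glycine 15 reached the floor (60%), against 74% of all genes. Their median was 144, under the 405 of all genes. The glycine receptor subunit Glrb read 1176, the AMPA receptor subunit Gria2 792 and Glra2, the fetal glycine receptor subunit, 471, whereas the adult subunit Glra1 read 14.9. The NMDA receptor subunit Grin1 read 282 and Grin2a, which appears late in development, 30.8. Of 22 voltage-gated channel genes 13 reached the floor (59.1%), likewise under the share of all genes, with a median of 166. They were led by Scn3b, a sodium channel beta subunit, at 844 and the calcium channel subunit Cacna2d1 at 754. The sodium channel Scn3a of embryonic neurons read 327 and Scn8a, of mature nodes, 30.3.

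The oligodendrocyte lineage was uneven. Of 16 genes 11 reached the floor (68.8%), near the 74% of all genes, with a median of 221. Pdgfra, the growth factor receptor of precursors, read 6257, but fibroblasts carry it too. The tight junction protein Cldn11 read 5401, the myelin enzyme Cnp 2759.7 and myelin basic protein (Mbp) 2147, while Sox10 read 566, Olig1 429 and Olig2 25.5. The late myelin genes Mog and Mobp read 59.8 and 16.9. The summed signal was 19272 at 0 hours, above the later range of 10975 to 15319.

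Genes of cells that lie outside the neural tissue of the cord read at different levels. Dorsal root ganglia had been removed, and of 14 sensory neuron genes 6 reached the floor (42.9%), against 74% of all genes. Of these 6, 2 passed 1000, with the highest at 1603, and Prph, also in the motor neuron list, read 375. The pain channel Trpv1 read 28.7, the sodium channel Scn10a 43.3 and the purine receptor P2rx3 40.8, all below the floor. Of 14 Schwann cell and neural crest genes 11 reached the floor (78.6%), near the 74% of all genes. Those above 1000, Fabp7, Pmp22 at 5378, Gap43, Egr2 at 2327 and Ngfr at 1129, are shared with other cells, and Erbb3, which the crest lineage needs, read 99.1. Endothelium was low, with 6 of 15 genes at the floor (40%), against 74% of all genes, and a median of 76. Among those at the floor were Esam at 1159, Eng at 774 and Tie1 at 266. Other genes of the list lay below it, with Pecam1 at 39.7, Kdr at 34.4 and Vwf at 13.3. The summed signal of the endothelial list was 3094, below the later range of 3636 to 6474. Of 15 genes of contractile wall cells 10 reached the floor (66.7%), against 74% of all genes. Their median of 390 was above that of endothelium and near the 405 of all genes. Anpep read 5860, the actin-binding Tagln 3800.1 and Acta2 1727, but Rgs5, a marker of pericytes, read 19.3. None of 11 erythroid genes reached the floor, and the globin Hbb read 10. Of 13 epithelial genes 2 did, and cartilage collagen Col2a1 read 72.2.

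Skeletal muscle genes were measured as well, although muscle was not the tissue dissected. Of 27 measured, 22 reached the floor (81.5%), against 74% of all genes, and 8 passed 1000, with a median of 479 at percentile 54.1. The actin Acta1 read 4152, the regulatory light chain Myl11 2610.2, the light chain Myl1 1869 and Myh3, the embryonic myosin heavy chain, 1797. Myog, the factor that drives myoblasts to fuse and differentiate, read 2541 and Myod1, which commits them, 594. The other myosin heavy chains of the list were low, with Myh8 at 33 and the slow chain Myh7 at 15.1. The summed signal was 22728 at 0 hours, above the later range of 5416 to 11761. The source of these transcripts was not tested.

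**Figure D2:**
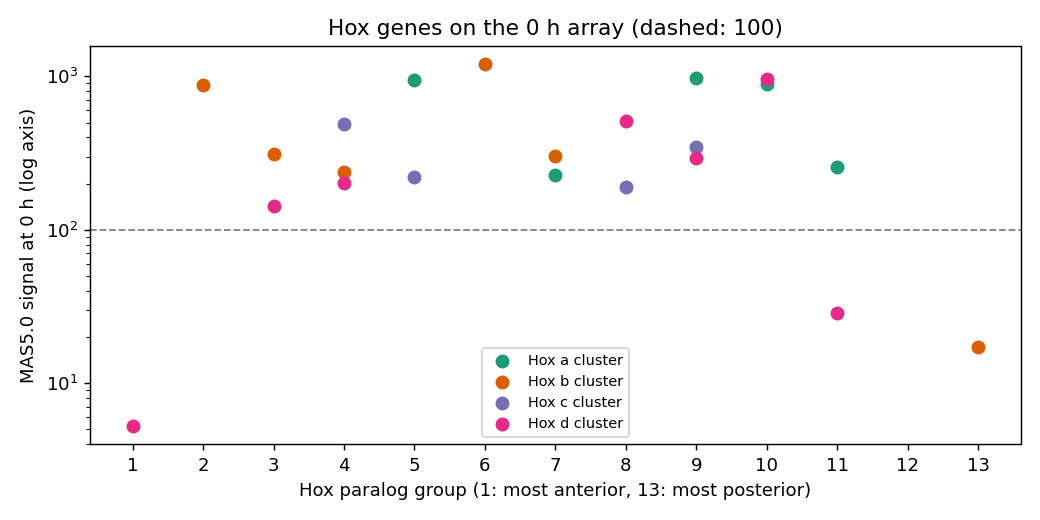
Signals of 22 Hox genes on the 0 hour array against their paralog group, 1 point a gene, coloured by cluster, on a log axis with the floor of 100 dashed. Every gene of groups 2 to 10 lies above the floor, with Hoxb6 highest at 1205, while Hoxd1, Hoxd11 and Hoxb13 lie below it.

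Hox genes, which mark position along the body axis by paralog group, were seen for the groups of neck and trunk. Of 22 measured, 19 reached the floor (86.4%), against 74% of all genes, but their median of 300 was at percentile 43.2. All 18 genes of groups 2 to 10 did so, from the hindbrain and neck genes Hoxb2 at 878 and Hoxc4 at 489.5 to Hoxa5 at 952, Hoxb6 at 1205, Hoxc8 at 189.8 and Hoxa9 at 971. In group 10, of lumbar levels, Hoxa10 read 889 and Hoxd10 960.5. Of group 11 Hoxa11 read 254.8 and Hoxd11 28.7, and Hoxb13, of the tail, read 17.2. Fore- and midbrain factors were low, with 1 of 11 at the floor, Neurod6 at 265.2, while Otx2 read 7.38 and Nkx2-1 11.2.

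**Figure D3:**
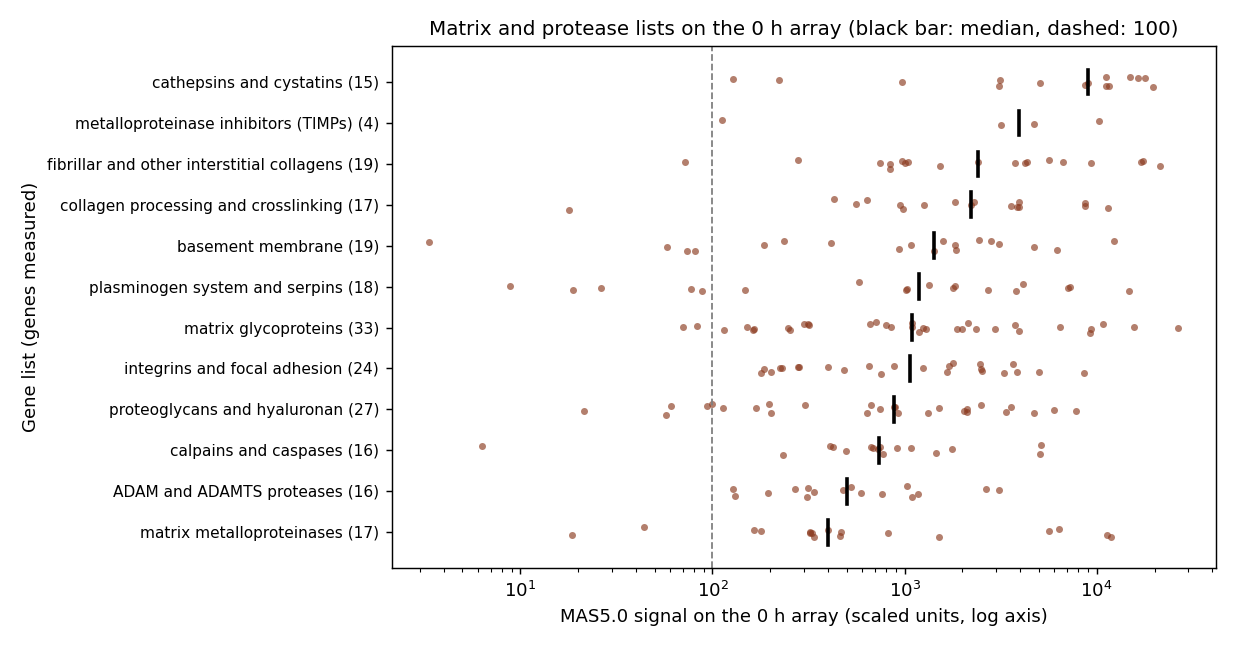
Signals of the members of 12 matrix and protease lists on the 0 hour array, 1 point a gene on a log axis, with the list median as a black bar, the floor of 100 dashed and the number of genes measured in brackets. Cathepsins and cystatins have the highest median, 9002, and matrix metalloproteinases the lowest, 400.2, with 4 of them above 5000.

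Interstitial collagens and the enzymes that make them were bright. Of 19 interstitial collagens 18 reached the floor, with a median of 2415 at percentile 89.7. After the type I and III chains came Col5a2, which sets fibril width, at 9322 and the beaded filament chains Col6a1 at 6655 and Col6a3 at 5646. The enzymes and chaperones that make collagen were present with them, 16 of 17 at the floor: the hydroxylase subunit P4hb read 11459.5, the collagen chaperone Serpinh1 (HSP47) 8672 and the crosslinking oxidase Lox 3843, while Crtap, of the prolyl 3-hydroxylase complex, read 18. Of 19 basement membrane genes 15 reached the floor (78.9%), near the 74% of all genes, led by Sparc at 12275 and Nid1 at 6209. The type IV collagen chain Col4a1, the protein with which the wells had been coated, read 4740.4 as a transcript, and Col4a4 read 3.36.

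Among proteoglycans 22 of 27 reached the floor (81.5%), against 74% of all genes. The small leucine-rich ones of connective tissue led, with Lum at 7773, Dcn at 5967 and Bgn at 4735. Genes of the matrix around neurons and glia were uneven: the lecticans neurocan (Ncan) and aggrecan (Acan) read 99.3 and 60.8, the link proteins Hapln4 and Hapln2 57.4 and 21.5 and tenascin-R (Tnr) 70.5, while Ptprz1, a receptor phosphatase that carries chondroitin sulfate, read 879.6, tenascin-C (Tnc) 2342 and Sparcl1 9201. All 24 integrin and focal adhesion genes reached the floor. The shared beta 1 chain Itgb1 read 8633, and the linkers from integrin to actin, Ilk, Vcl and Zyx, 5016, 3854 and 3305.

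Proteases of the lysosome were brighter than those that cut matrix outside the cell. All 15 cathepsins and cystatins reached the floor and 10 passed 5000, with a median of 9002 at percentile 98.6. Beside Ctsb, the cysteine protease Ctsl read 17762, the aspartic protease Ctsd 16321 and Cst3 (cystatin C), the secreted inhibitor of cysteine cathepsins, 14843. Ctsk, the collagen-cutting cathepsin of osteoclasts, read 965.

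Of 17 genes in the matrix metalloproteinase list 15 reached the floor, but 4 stood far above the rest. Mmp12, the elastase of macrophages, read 11926, the gelatinase Mmp9 11300.1, the gelatinase Mmp2 6397 and Mmp14, the membrane enzyme that activates pro-Mmp2, 5647. The next, Reck, is a membrane inhibitor of these enzymes and read 1515. The stromelysins Mmp3 and Mmp10 read 179 and 43.8, and the neutrophil collagenase Mmp8 18.5. On the later arrays Mmp9 ran between 1088 and 16244 and Mmp2 between 6718 and 17659, so Mmp2 was lowest in the unloaded culture, short of the size rule given below. Of the tissue inhibitors, Timp2 read 10319, Timp1 4718, Timp3 3166 and Timp4 112.

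All 16 ADAM and ADAMTS proteases reached the floor at lower signals, led by Adam17, which sheds TNF from the cell surface, at 3089.7 and Adam15 at 2663. In the plasminogen system 13 of 18 genes reached it (72.2%), near the 74% of all genes. The complement inhibitor Serping1 read 14702, the activator urokinase (Plau) 7244 and Serpine2, an inhibitor of it, 7099.6, while plasminogen itself (Plg), made by the liver, read 77.7 and prothrombin (F2) 8.84. Of calpains and caspases 15 of 16 reached the floor. The calpain chains Capn2 and Capns1 read 5126 and 5091, and the muscle calpain Capn3 6.32; the initiator caspases Casp8 and Casp9 read 426 and 409.

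**Figure D4:**
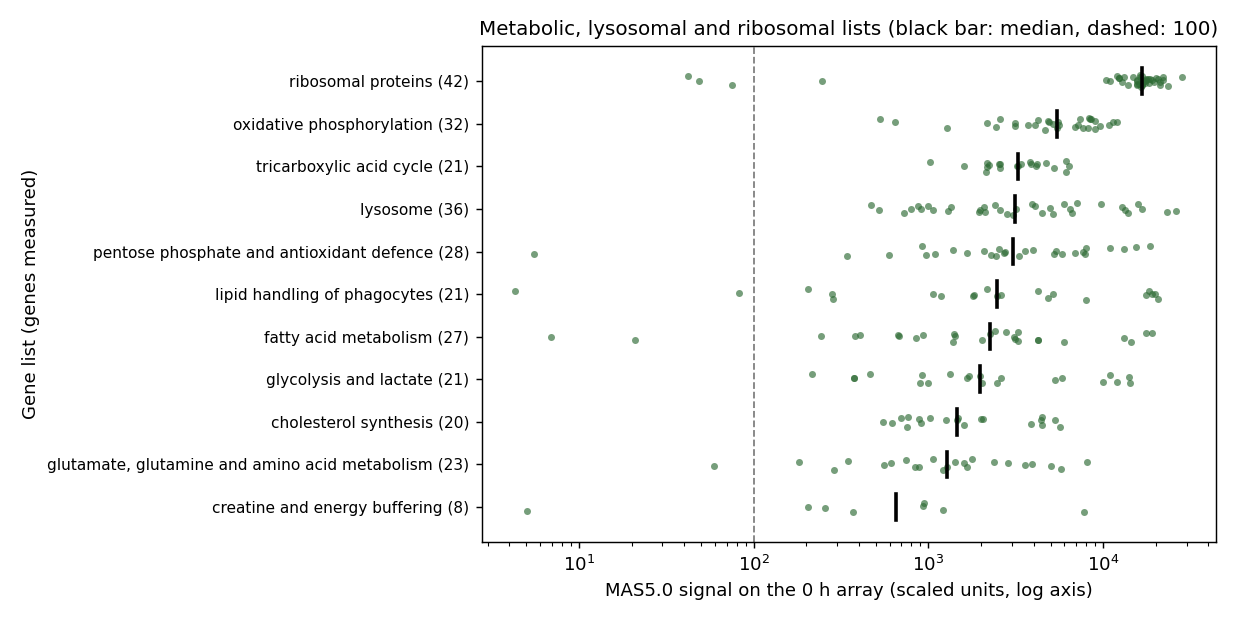
Signals of the members of 11 metabolic, lysosomal and ribosomal lists on the 0 hour array, 1 point a gene on a log axis, with the list median as a black bar, the floor of 100 dashed and the number of genes measured in brackets. Ribosomal proteins have a median of 16573, oxidative phosphorylation 5471 and glycolysis 1979.

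Energy genes were uniformly present. All 32 genes of oxidative phosphorylation measured reached the floor, with a median of 5471 at percentile 96.8, led by the cytochrome oxidase subunit Cox4i1 at 12000.2 and the ATP synthase beta chain Atp5f1b at 11357. All 21 genes of the tricarboxylic acid cycle passed 1000, with a median of 3244. All 21 genes of glycolysis and lactate reached the floor; aldolase (Aldoa) read 14318, enolase (Eno1) 14088 and lactate dehydrogenase A (Ldha) 9916. The lowest of the list were hexokinase 2 (Hk2) at 215, the neuronal glucose transporter Slc2a3 at 377, the kinase Pdk1 at 377 and the phosphofructokinase Pfkl at 463. Ckb, the creatine kinase of brain, read 7764, the muscle form Ckm 257, and the muscle mitochondrial form Ckmt2 5.02.

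In lipid metabolism, all 20 genes of cholesterol synthesis reached the floor, from Cyp51 at 5654 and Fdps at 5321 to Mvk at 546. Of 27 fatty acid genes 25 did so. The desaturase Scd2 read 14476, while Acacb, the acetyl-CoA carboxylase of oxidative tissue, read 6.94. In amino acid handling 22 of 23 reached it, with the glutamate dehydrogenase Glud1 at 5033. Antioxidant genes were bright, 27 of 28 at the floor and 23 above 1000, with the glutathione peroxidase Gpx1 at 15442, the transferase Gstp1 at 13076 and superoxide dismutase Sod1 at 7995; the metallothionein Mt1 read 5.56.

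Genes of cell division were at or above the floor, while the paper saw no evidence of cell proliferation in the 3 days before strain. That was judged by cell counts, and signals of these transcripts do not count dividing cells. All 30 cell cycle genes measured reached the floor with a median of 853, Ccnd1 of G1 reading 6667, the replication clamp Pcna 6894, and the mitotic Kif11 and Aurka 501 and 317. The cell cycle inhibitor Cdkn1c, which is imprinted, read 12617. Imprinted growth genes were bright, 12 of 13 at the floor, with the noncoding RNA H19 at 14754 beside its neighbour Igf2. Their summed signal was 69353 at 0 hours, above the later range of 28443 to 48906, and that of the cell cycle genes was 64302, above the later range of 33601 to 57877. Of growth factors Igf1 read 10866 and Ptn 5981, while Bdnf read 144 and Gdnf 11.7.

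Stress and inflammatory genes reached the floor at shares from 75% in the inflammatory list, near the 74% of all genes, to 100% for chaperones. Of 24 immediate early genes 20 did so (83.3%), with Jund at 9822, Egr1 at 5169 and Atf3 at 4969.6, while Fosb read 22.6 and Arc 94.3. Of 28 inflammatory genes 21 did so (75%); the monocyte chemokines Ccl2 and Ccl3 read 9359 and 5748, but Il6 read 42.3, the inducible nitric oxide synthase Nos2 70.5 and the cyclooxygenase Ptgs2 144. All 21 chaperones reached the floor, led by Hsp90ab1 at 12161, with the heat-inducible Hspa1a at 368. Of 21 apoptosis genes 20 reached it; Mcl1, a survival member of the Bcl2 family, read 3571 and Bcl2 itself 57.5. Of 15 genes of the MAP kinase cascade 13 did so, among them Map2k1 at 2193 and Mapk14 (p38) at 1863.

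Of 21 mechanosensitive channels and effectors 17 reached the floor (81%), against 74% of all genes. Ccn2, a secreted target of the strain-responsive YAP pathway, read 6475, and the stretch-gated channel Piezo1 read 1524, with Piezo2 at 1.51. The channel Trpv4 read 22.7, the potassium channel Kcnk4 23.4 and Trpm7 972. Of gap junction genes other than Gja1, Gjb2 read 2400.3 and the neuronal connexin Gjd2 read 35.1.

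Only a small number of probe sets set the unloaded culture apart from every strained one by a wide margin. Of the 17850 probe sets at the floor, 4378 were brightest at 0 hours of all 7 arrays and 2807 were dimmest there. At 72 hours 4080 of them were brightest. By a rule of size, a 0 hour signal at least 2 times and at least 200 above the highest of the 6 later arrays, 64 probe sets (0.206%) were higher at 0 hours, among them 39 genes (0.274%), with ratios of 2.01 to 3.11. In the opposite direction 1 probe set (0.00322%), with no symbol, read 627 at 0 hours and 1458 to 2466 later. The counts depended on scaling and on 1 array. The array medians at the later times differed from that at 0 hours by -0.07 to -0.17 on the log2 scale, and with all medians set equal 28 of the 64 remained and 7 probe sets were lower. Without the 2 hour array the counts were 165 and 24. An exact permutation of 1 array against 6 cannot go below 1 in 7, so no test was made.

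**Figure D5:**
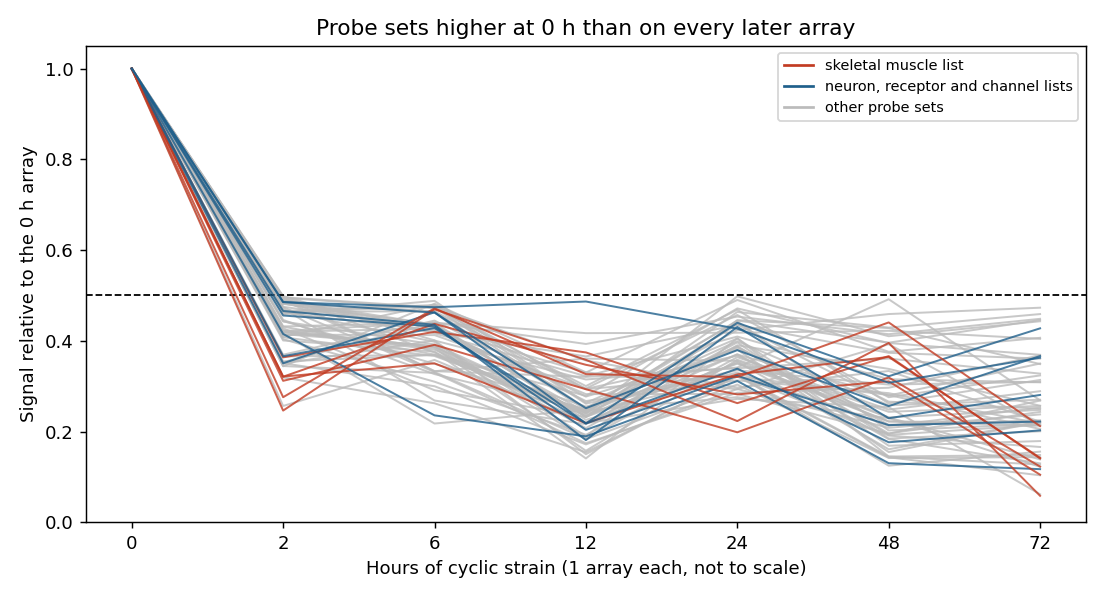
Signals of the 64 probe sets that were higher at 0 hours than on every later array, each as a share of its own 0 hour signal, against hours of strain (categories, 1 array each). Red lines are 6 skeletal muscle genes, blue lines neuron, receptor and channel genes and grey lines the rest; by the rule every later point lies at or below the dashed line at 0.5.

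Of the genes of this set that belonged to a list, most were muscle or neuronal genes, the others being Bcas1 of the oligodendrocyte lineage and the tropomyosin Tpm2. Of the 27 muscle genes 6 were in it: Tnnt1, a slow troponin, read 604 at 0 hours and 85.7 to 220.1 later, and Myl11 read 2610.2 and 320.3 to 1021. Myl4 read 1225 at 0 hours and 172 to 514 later, and Tnnc2 821 and 86 to 359; these 4 also passed with equal medians, and Actn2 and Mybph did not. Of the 32 neuronal genes 4 were in it, Crmp1, Dcx, Ina (on its dimmer probe set) and Mapt, and none of the 4 passed with equal medians. After quantile normalization 5 neuronal and 4 muscle genes passed, and without the 2 hour array 11 neuronal genes, Gap43 and Stmn2 among them, and 6 muscle genes. Mapt read 2819 at 0 hours and 510.3 to 1313 later, and Dcx, a microtubule protein of migrating neurons, 946 and 193 to 431. The receptor subunits Glra2 (471 at 0 hours and 55.1 to 196 later) and Gria2 (on the dimmer of its probe sets) passed under both scalings. Other genes of the set outside the lists were Srl, a muscle calcium store protein, at 376 and 23.2 to 134 later, and Pak3, a neuronal kinase, at 976 and 214 to 359.8 later. Slitrk1, a synaptic adhesion protein, read 368 at 0 hours and 51.8 to 149 later, and Rbfox1, a neuronal splicing factor, 1543 and 375 to 658. No gene of the microglial, fibroblast or astrocyte lists (23, 27 and 21 measured) was in the set. With only 0.274% of all genes in it, lists of that size would mostly hold none, so this absence tells little.

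Some neuronal and muscle genes that missed the rule were also highest at 0 hours. Gap43 read 4350.2 in the unloaded culture and then 2752, 2142, 1476, 1786, 729 and 751 on the later arrays in order of time. Slc17a6 read 1330.5 and then 686, 675, 264, 396, 147 and 256 in the same order. For both genes the unloaded value was the highest of the 7, and the 2 hour array was nearest to it. Among muscle genes Myog read 2541 at 0 hours, and then 1023, 1411, 614, 784, 1218 and 430.1.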

How the data were processed

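RNA from the cultures was hybridised to 1 Affymetrix Rat Genome 230 2.0 array per time point. The authors computed a MAS5.0 signal intensity per probe set in GCOS and scaled each array globally; the deposited intensity values are linear, with a trimmed mean (2% left out at each end) of 499.997 on every array, and carry no detection call. From these values the 57 control probe sets were left out, and probe sets were named from the platform annotation of 2016, with symbols brought up to date through RefSeq: 20826 had 1 symbol, 436 several and 9780 none, and only the first kind was named. A gene was its brightest such probe set at 0 hours. Genes were read against 71 lists. The lists and the named genes were chosen with earlier results of these data known, and 4 of the lists (lysosome, phagocyte lipid handling, fat cells, other blood cells) after the values of this array had been seen. Names were drawn from the 30 brightest genes and from up to 8 of the highest and 6 of the lowest members of each list. They also came from defining members below 100 and the 15 largest ratios past the size rule in each direction, where present. Not all of these are given, and further members were named for their role after their values were seen. Means, tests and intervals could not be given for 1 array, and its precision is limited by that number. The scripts were tested on simulated data, in Python 3.11.15 with pandas 2.3.3 and numpy 2.4.6. Alternatives were floors of 50 and 200, other choices of probe set, scaling, ratio and later arrays.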

Additional observations from a re-analysis of the deposited data

How the results depend on the processing

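No paired analysis was possible because each time had 1 array and the labels give no replicate numbers. Of the 71 list counts, the number of members at or above the floor moved by more than 1.5 times in 8 lists when a gene was its dimmest probe set, in 2 with its median probe set (floor and roof plate, fat cells), in 6 with a floor of 200, in 8 with a floor of 50 and in none with only plain probe sets (names ending in _at alone). The excitatory list had 5 genes at a floor of 50, the inhibitory list 4 at a floor of 200 and the motor neuron list 3 by their dimmest probe set. The counts of the neuron, macrophage, fibroblast, astrocyte and skeletal muscle lists were not among those that moved. The 64 probe sets higher at 0 hours than on every later array were 276 with a ratio of at least 1.5, 1 with a ratio of at least 3, 28 with equal medians and 165 without the 2 hour array; quantile normalization gave 50. The 1 probe set in the opposite direction became 25 with a ratio of at least 1.5, 0 with a ratio of at least 3, 7 with equal medians, 5 after quantile normalization, 24 on leaving out the 2 hour array and 2 on leaving out that of 24 hours. The comparison of list sums across scalings was chosen after seeing the data; of the sums in the report, that of the fibroblast list alone changed its place against the later arrays, with equal medians but not after quantile normalization. The share of promoters with a motif over the 100 brightest genes is void, since 75 of them had an entry (75%, under the 80% needed), and protein length was not analysed here, nor were the alternatives of 50 and 200 brightest genes. Signals under the floor have no reliable order, and a low signal on 1 probe set does not show that a gene was silent.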
